A study of Mus musculus with 22 samples.

Results

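Gene-desert Oct4 peaks are described here, which are Oct4 ChIP-seq peaks that lay far from any protein-coding gene. The members were selected on the deposited positions of the peaks: a summit on chromosomes 1 to 19, outside all protein-coding gene bodies and more than 100 kb from the nearest protein-coding transcript start. Bins of 1 Mb with 20 or more summits in either peak list were left out, and the lists of the 2 genotypes were kept apart. By this rule 672 of the 5455 Oct4-WT/WT peaks (12.3%) and 1024 of the 7479 Oct4-KO/KO peaks (13.7%) were gene-desert peaks. Passing the q value limit of the authors' peak call also chose every member, so fold enrichment and q are given as descriptions.

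Each genotype was 1 ChIP sample, made from snap-frozen aortic segments of 15 mice that were fed a Western diet for 18 weeks. The tissue reached from the aortic root and arch up to where the carotid artery divides. All mice were of the C57BL/6 strain by the labels, and the study worked in an apoE-/- background with littermate controls. Oct4-KO/KO mice (SMC-Oct4Δ/Δ in the labels) had lost Oct4 conditionally in smooth muscle cells, with the deletion driven by the Myh11 promoter, and Oct4-WT/WT mice (SMC-Oct4+/+) had not. The labels give the material as a mixture of cell types, and the deletion was not aimed at cells other than smooth muscle cells. How much Oct4 those cells held was not measured here. With 1 pooled sample per genotype the spread between replicates is unknown. Intervals and Fisher tests were computed over the peaks of 1 sample, so they hold counting error alone and test no difference between genotypes. In bulk tissue, fewer cells with Oct4 at a position and less Oct4 per cell cannot be told apart.

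Oct4 (Pou5f1) is a POU-domain transcription factor known for its part in pluripotency. It binds the octamer ATGCAAAT, often beside a Sox site, and much of its binding in stem cells lies at enhancers rather than at promoters. Gene deserts are long stretches without protein-coding genes. They often flank developmental regulators and neuronal adhesion genes, can hold enhancers that act over a long distance, and are rich in repeats. Tandem repeats are short units that follow each other head to tail. The telomere unit TTAGGG stands at chromosome ends and also occurs inside chromosome arms, and GGAAT is a unit of some satellite DNA. The GGAAT arrays in the gene-desert sequence were short, with 4 to 13 units, and whether they belong to mouse satellite DNA was not examined here.

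Sequences are shown first for strong members, since many of the strongest lay on repeats. All are RefSeq GRCm38.p6 sequence, plus strand, centred on the wild-type summit. The first pair holds the GGAAT arrays with the highest wild-type fold enrichment in otherwise single-copy sequence, with runs of at least 2 units (ATTCC on the other strand) in capitals. The peak 1237 kb from Nxph1, which encodes a neurexin ligand (chr6:10186362-10186482), had a fold enrichment of 54.2 in the wild-type and 54.0 in knockout tissue. The peak 669 kb from 5730522E02Rik (chr11:25100109-25100229) had 48.7 and 49.9.
Nxph1: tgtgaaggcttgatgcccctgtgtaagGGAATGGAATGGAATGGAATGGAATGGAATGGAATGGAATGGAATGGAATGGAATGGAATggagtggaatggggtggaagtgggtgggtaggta
5730522E02Rik: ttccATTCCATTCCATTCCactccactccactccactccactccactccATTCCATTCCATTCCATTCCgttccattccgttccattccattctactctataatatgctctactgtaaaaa

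The next sequence is from the member with the highest wild-type fold enrichment among those counted below as single-copy without a tandem repeat. That class was set by exact repeats with units of 1 to 6 bp and by 31-base words, so longer or diverged repeats were not searched for, and a stretch of the sequence printed here recurs within it. The peak 373 kb from Kcnh5 (chr12:74804231-74804351) had a fold enrichment of 36.3 in the wild-type and 35.6 in knockout tissue.
Kcnh5: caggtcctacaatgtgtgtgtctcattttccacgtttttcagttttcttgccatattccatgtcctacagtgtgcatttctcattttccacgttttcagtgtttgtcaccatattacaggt

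Gene deserts as defined here covered 734.5 Mb of sequence outside the dense bins, or 30.9% of the autosomal sequence examined, and held a smaller share of the peaks. They took 23.7% of the 2840 autosomal wild-type peaks outside dense bins and 21.2% of the 4828 knockout peaks. This gave 0.915 wild-type summits per Mb (exact 95% Poisson interval 0.847 to 0.987) and 1.39 knockout summits per Mb (1.31 to 1.48). Over all autosomal sequence outside dense bins the densities were 1.19 and 2.03 per Mb. Intergenic sequence 10 to 100 kb from a start had 1.39 (1.29 to 1.5) wild-type and 2.35 (2.22 to 2.49) knockout summits per Mb. Gene bodies beyond 10 kb of a start had 1.13 (1.05 to 1.21) and 1.99 (1.88 to 2.09). Sequence 1 to 10 kb from a start had 1.54 (1.42 to 1.67) and 2.92 (2.75 to 3.10). In both lists the gene desert had the lowest density of the 5 location classes, and its interval lay below those of the other classes.

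**Figure D1:**
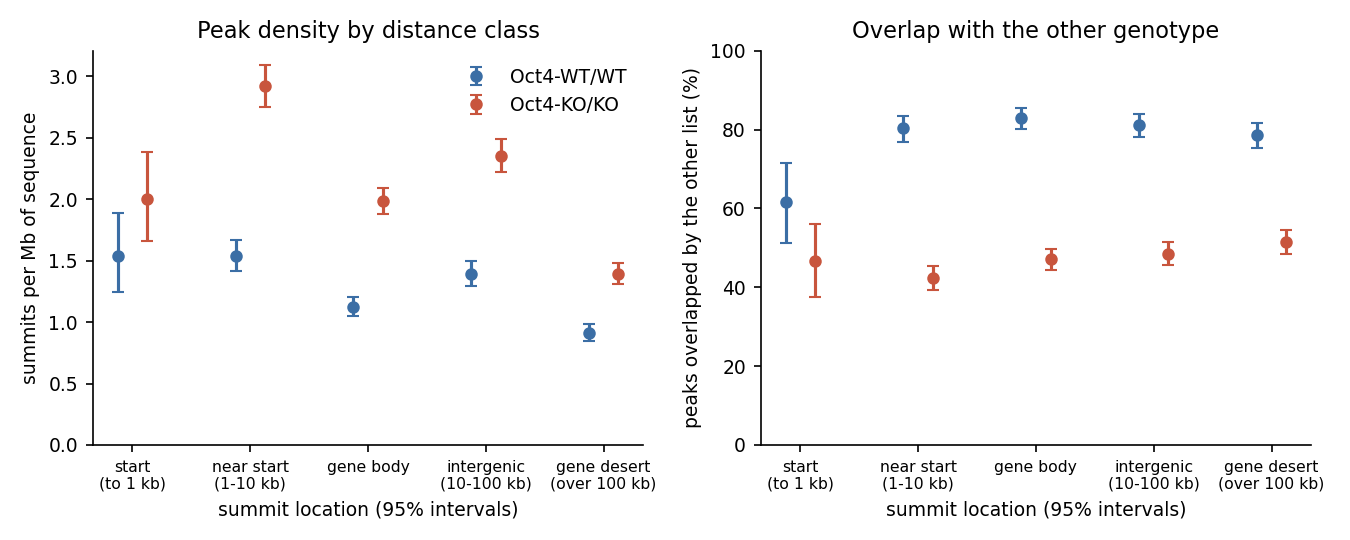
Left, summits per Mb of sequence in 5 location classes on autosomes outside dense bins, with exact 95% Poisson intervals; right, the percentage of peaks in each class overlapped by a peak of the other genotype, with exact 95% binomial intervals. Blue points are Oct4-WT/WT and red points are Oct4-KO/KO. Gene deserts lie lowest on the left, at 0.915 and 1.39 summits per Mb.

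Members were spread over all 19 autosomes. The density per chromosome ranged from 0.67 wild-type summits per Mb of desert on chromosome 11 to 1.65 on chromosome 17. In the knockout it ranged from 0.871 on chromosome 12 to 2.17 on chromosome 17. The median distance to the nearest protein-coding start was 271 kb in the wild-type (quartiles 164 and 497 kb) and 265 kb in the knockout (164 and 483 kb). More than 1000 kb from every such start lay 70 wild-type and 86 knockout members. The farthest member in both lists was nearest to Pcdh20, a protocadherin gene, at 2440 kb, and it sat on a telomere-type array with a fold enrichment of 40.5 in the wild-type and 33.5 in knockout tissue. The next 2 wild-type members lay in the desert between Cntnap5b and Cdh20, at 2307 and 2140 kb, with 6.86 and 13.0. Both were also called in the knockout, with 8.21 and 10.9. The knockout member 2266 kb from Tenm3 had a fold enrichment of 7.52 and no overlapping wild-type peak. The remaining ones among the 5 farthest were nearest to Slc39a10, at 1989 kb in both lists (15.1 and 13.7), and, in the wild-type, to Pcdh17, at 1942 kb (10.3).

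The members just inside the distance limit were nearest to Otogl, Camk2d and Erbb4 in both lists. Their wild-type distances were 100148, 100169 and 100222 bp and their wild-type fold enrichments 13.0, 6.17 and 9.60. The peaks just outside it were nearest to Wls, Ccdc85a and Gm8882, at 99887, 99747 and 99631 bp, with 45.3, 9.60 and 56.2. The peaks near Wls and Gm8882 lay on a TTAGGG and a GGAAT array.

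Gene-desert peaks were narrow and mostly low. The median width was 49 bp in the wild-type and 46 bp in the knockout, and 40 and 39 members were wider than 200 bp. Median fold enrichment was 8.23 in the wild-type (quartiles 6.86 and 13.2, range 4.11 to 56.9) and 8.21 in the knockout (6.84 and 12.3, range 4.10 to 54.0). In the other location classes the median was 7.54 to 8.23 in the wild-type and 8.21 in knockout tissue. Every fold value of a list was a whole multiple, within 0.01 fragments, of a single step of 0.686 in the wild-type and 0.684 in knockout tissue, so the expected pileup was the same at every peak of a list, 0.458 and 0.462 fragments. Fold is the fragment count at the summit plus 1, divided by the expected pileup plus 1, and therefore converts to fragments: the median member had 11 fragments in either list and the lowest 5. Within a list fold enrichment thus ranks members as their fragment counts do, and no difference in local background enters it. The highest wild-type member had 82 fragments and the highest knockout member 78. These are 2 times the narrowest peak widths, 41 and 39 bp, which is the most that fragments of that length can stack on 1 base when duplicate removal keeps 1 read per start and strand. One wild-type and 3 knockout members stood at that ceiling, where fold enrichment can rise no further, and 12 and 16 reached at least 75% of it.

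**Figure D2:**
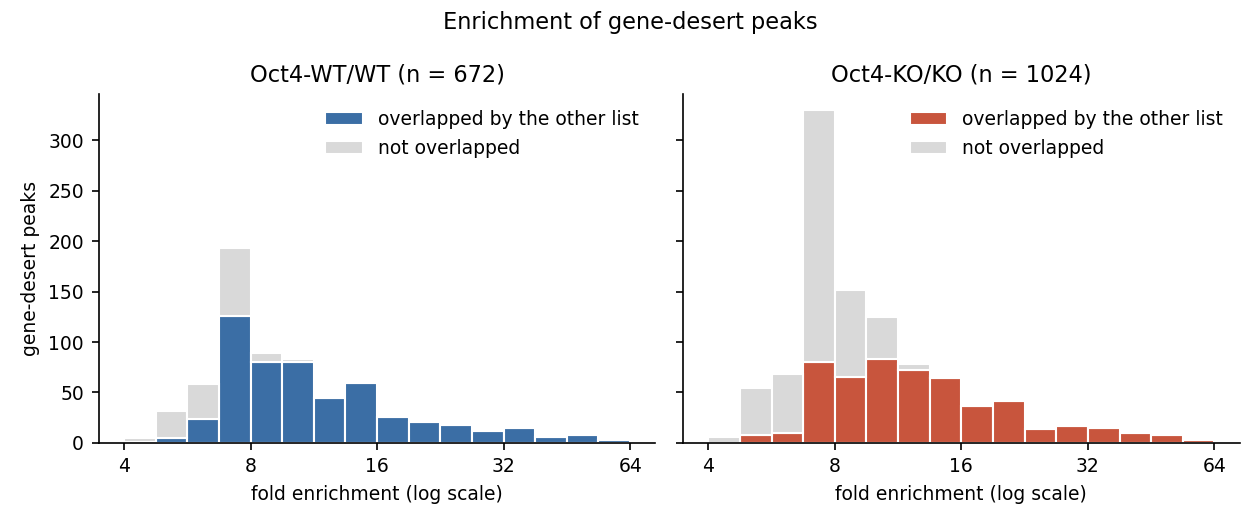
Number of gene-desert peaks by fold enrichment (log scale) in Oct4-WT/WT (left, n = 672) and Oct4-KO/KO (right, n = 1024). Coloured bars are peaks overlapped by a peak of the other genotype and grey bars are the others, which in the wild-type stop at a fold enrichment of 9.60 and in the knockout at 15.7.

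The same gene-desert positions were called in both genotypes for most wild-type members and for about as many knockout members as not. Of the 672 wild-type members, 528 (78.6%, exact 95% binomial interval 75.3 to 81.6) were overlapped by a knockout peak by 1 bp or more, against 80.2% of all autosomal wild-type peaks outside dense bins. Of the 1024 knockout members, 527 (51.5%, 48.4 to 54.6) were overlapped by a wild-type peak, against 47.3% of all such knockout peaks. Against peaks of the other location classes, the wild-type share did not differ past the threshold (80.7% of 2168; odds ratio 0.876, interval 0.705 to 1.09; two-sided Fisher's exact test, p = 0.223, adjusted p = 0.223 over 6 tests). The knockout share was higher in gene deserts (46.1% of 3804 elsewhere; odds ratio 1.24, interval 1.08 to 1.42; Fisher's exact test, adjusted p = 0.00543). At a distance limit of 200 kb the knockout shares were 49.5% and 46.9% (Fisher's exact test, unadjusted p = 0.222), while the wild-type share was lower in deserts, with 75% and 81.1% (p = 0.00388). With distances taken to all annotated genes the knockout shares were 48.5% and 47.2% (Fisher's exact test, unadjusted p = 0.770). With a match defined as summits within 100 bp the wild-type shares were 76.2% and 80.3% (Fisher's exact test, unadjusted p = 0.0253), and with dense bins kept the order turned, with 72.6% and 70.6% (p = 0.261). Among single-copy summits without a tandem repeat, a class chosen after the sequences were seen, the knockout shares were 43.0% in deserts and 42.7% elsewhere.

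Whether a member was overlapped went with its fold enrichment. Of wild-type members with a fold enrichment under 6, 6 of 37 (16.2%) were overlapped, of those from 6 to 8, 150 of 251 (59.8%), and of those from 8 to 10, 114 of 126 (90.5%). All 258 wild-type members at 10 or more were overlapped. In the knockout 8 of 60 (13.3%), 90 of 398 (22.6%), 95 of 207 (45.9%) and 157 of 181 (86.7%) were overlapped at under 6, from 6 to 8, from 8 to 10 and from 10 to 15. Of the 178 knockout members above that, 1 had no wild-type peak. It was nearest to Nbas, 418 kb away, with 22 fragments and a fold enrichment of 15.7 in single-copy sequence, and was chosen after its values were seen. The median fold enrichment was 9.60 in overlapped and 6.86 in other wild-type members, and 11.6 and 6.84 in the knockout.

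Where both lists had a peak, the summits nearly coincided and the heights were close. The 528 overlapped wild-type members had their summit a median of 3 bp from the knockout summit, and 445 within 10 bp. All of the overlapping knockout peaks were gene-desert members too. The knockout summit held more fragments at 340 of the 528, fewer at 125 and as many at 63, and the median ratio of knockout to wild-type fragments was 1.13 (quartiles 1.00 and 1.33). These ratios are not corrected for depth, and the expected pileup was 0.458 in the wild-type and 0.462 in knockout tissue.

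**Figure D3:**
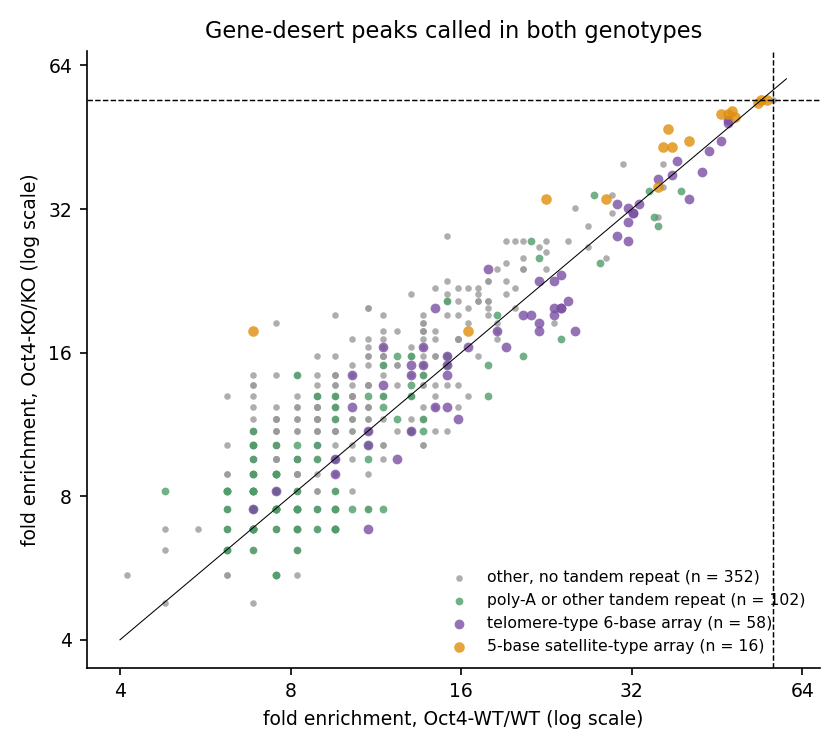
Fold enrichment of the 528 overlapped wild-type gene-desert peaks (x axis) against the knockout peak that overlaps each (y axis), both on log scales, coloured by the tandem repeat within 100 bp of the summit. Dashed lines mark the ceilings, 56.9 and 54.0, and the solid line marks equal values. Of the wild-type members at a fold enrichment of 30 or more, 29 of 38 lie on TTAGGG or GGAAT arrays.

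Most of the 20 strongest gene-desert peaks of each list sat on TTAGGG or GGAAT arrays, but the strongest of the wild-type list did not, and in the knockout list 3 peaks shared the highest value at the ceiling. The wild-type member with the highest fold enrichment, 56.9 at the ceiling of 82 fragments, lay 200 kb from Rab10 near the start of chromosome 12, on sequence without such an array whose 31-base words had a median of 80 copies in the assembly. The knockout peak there was at its own ceiling, 54.0. Arid1b, which encodes a subunit of a chromatin remodelling complex, was the nearest gene of a GGAAT-array peak at 369 kb with 55.5 in the wild-type and 54.0 in knockout tissue. The GGAAT peak near Nxph1, printed above, was also at the knockout ceiling. The GGAAT peaks nearest to Gulp1 (53.5 and 53.4), Pou4f1, which encodes a POU-domain factor of sensory neurons (48 and 51.3), Trim52 (47.3 and 50.6) and Ndst4 (45.9 and 50.6) were also among the 10 highest of 1 or both lists. Telomere-type peaks nearest to Diaph3 (47.3 in the wild-type and 49.3 in knockout tissue), Fgf14 (47.3 and 48.6) and Cr2 (45.9 and 44.5) complete these lists together with the peak near 5730522E02Rik. The peaks nearest to Fgf14 and Cr2 lay close to the far ends of chromosomes 14 and 1. They ended in the wild-type at base 124802233 of 124902244 and at base 195371957 of 195471971. In fragments, the values of the genotypes were farthest apart at Ndst4, with 66 and 73.

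An array of at least 4 consecutive units lay within 100 bp of 75 of the 672 wild-type summits and 75 of the 1024 knockout summits. The repeat classes were chosen after the sequences were seen, so their shares are given as descriptions. TTAGGG arrays held 59 wild-type members, with a median fold enrichment of 20.6 (quartiles 13.0 and 30.9), and 59 knockout members, with 18.5 (14.02 and 29.1). In each list 58 of the 59 (98.3%) were overlapped by the other genotype. This was not particular to gene deserts. Among TTAGGG peaks of the other location classes, 95.1% of wild-type and 96.0% of knockout ones were overlapped. GGAAT arrays held 16 members of each list, with medians of 39.1 and 45.8, and all 16 were overlapped in both directions. In the other location classes GGAAT peaks had medians of 38.7 and 42.4, and 22 of 22 wild-type and 22 of 23 knockout ones were overlapped. Of the 20 strongest wild-type members, 10 lay on GGAAT and 8 on TTAGGG arrays, and of the 20 strongest knockout members 11 and 5. No window 1000 bp to either side of a member held an array, of 1344 wild-type and 2048 knockout windows. Elsewhere, TTAGGG arrays held 4.7% and GGAAT arrays 1.01% of the other wild-type peaks, against 8.78% and 2.38% of the wild-type members.

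Read from the side of the genome, most telomere-type arrays in gene deserts carried a peak. The assembly holds 108 TTAGGG arrays of 4 or more units in the gene-desert sequence, and 79 of them (73.1%, exact 95% binomial interval 63.8 to 81.2) had a wild-type summit within 100 bp and 80 (74.1%, 64.8 to 82.0) a knockout summit. Both lists had one at 77 arrays and neither at 26. Some of the arrays with a summit lay close to the far end of a chromosome, among them arrays on chromosomes 1, 11, 14 and 17. Reads, input, lists of problem regions and DNA of other species were not examined here, and whether peaks on arrays, 7SL RNA, ribosomal RNA or other repeated sequence stand for Oct4 binding was not tested. By length, 8 of 22 arrays of 4 to 5 units, 21 of 35 of 6 to 8 units, 29 of 29 of 9 to 11 units and 21 of 22 of 12 or more units had a wild-type summit. The knockout counts were 9, 22, 28 and 21. At the arrays with a summit the median fold enrichment was 18.9, 15.1, 15.1 and 32.2 in these 4 length classes in the wild-type. In the knockout it was 16.4, 16.4, 16.4 and 32.8. Short arrays beside longer ones took the value of a shared peak, as most wild-type ones of 4 to 5 units with a summit did. On chromosome 17 arrays of 5 and 15 units shared a wild-type peak of 31.5, while an array of 4 units on chromosome 2 had 6.86. A trend of height or share with length therefore cannot be read from these classes. Of the 25 GGAAT arrays, 21 had a wild-type and 20 a knockout summit, and 18 had both. Adjacent arrays can share a summit, so the counts of arrays and of peaks differ.

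**Figure D4:**
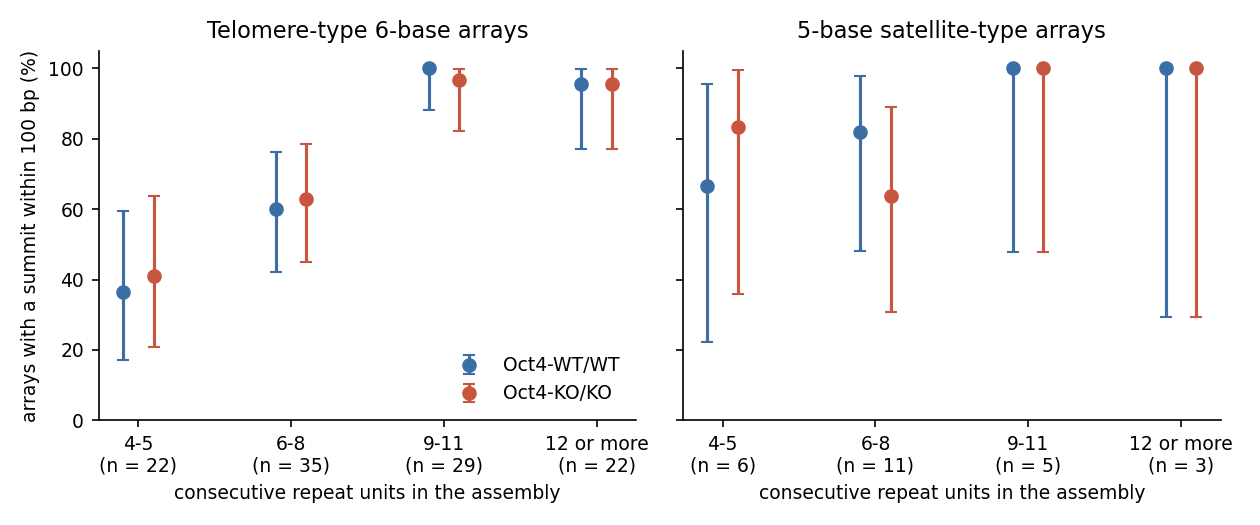
Percentage of the tandem arrays in gene-desert sequence that had a summit within 100 bp, by the number of consecutive units, for telomere-type arrays (left) and GGAAT satellite-type arrays (right), with exact 95% binomial intervals. Blue is Oct4-WT/WT and red is Oct4-KO/KO. At 9 to 11 telomere-type units, 29 of 29 and 28 of 29 arrays had a summit. Adjacent arrays can share a summit, so short arrays beside longer ones count as having one.

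Other repeats behaved in other ways. Runs of A or T of at least 20 bp lay at 96 wild-type and 104 knockout members, with medians of 6.86 and 7.52 and overlap shares of 48.96% and 46.2%. Peaks on such runs in the other location classes had overlap shares of 57.0% and 42.2%. Other tandem repeats with units of 1 to 6 bp lay at 66 and 90 members, with medians of 8.91 and 8.21. Sequence without a tandem repeat whose 31-base words had a median of 10 or more copies held 97 and 124 members. Single-copy sequence without a tandem repeat held 283 wild-type (42.1%) and 556 knockout members (54.3%), with medians of 8.23 and 8.21 and overlap shares of 83.7% and 43.0%. In the other location classes 58.6% of wild-type and 68.6% of knockout peaks were of that single-copy kind, with overlap shares of 87.8% and 42.7%. Of the members with a fold enrichment of 20 or more, 14 of 75 in the wild-type and 32 of 90 in the knockout were single-copy. This class is not free of repeated sequence, since copies were counted by exact 31-base words of the assembly. It includes the 7SL RNA peak at Rn7s6 (30.9 and 39.7), ribosomal RNA peaks near Esp38 and peaks in the gap before Vmn1r238. More than 50% of the window around the summit was soft-masked as repeat in 62.1% of wild-type and 57.6% of knockout members, against 51.9% and 49.1% of other peaks. The median GC content was 41.3% at wild-type and 39.8% at knockout summits, and 39.9% and 40.05% in the flanks of these members.

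The octamer was found at more knockout gene-desert summits than in their flanks or at other knockout peaks. It lay within 100 bp of 56 of 1024 knockout members (5.47%, exact 95% binomial interval 4.16 to 7.04), in 47 of 2048 equally long windows whose centres lay 1000 bp away on either side (2.29%, 1.69 to 3.04), and at 79 of 3804 other knockout summits (2.08%, 1.65 to 2.58). The difference from the flanks (odds ratio 2.46, interval 1.63 to 3.74; two-sided Fisher's exact test, adjusted p = 2.87e-05) and from the other peaks (2.73, interval 1.89 to 3.92; adjusted p = 4.76e-07) passed the threshold. In the wild-type it lay at 24 of 672 members (3.57%, 2.30 to 5.27), in 34 of 1344 flanking windows (2.53%, 1.76 to 3.52) and at 51 of 2168 other summits (2.35%, 1.76 to 3.08). The wild-type differences did not pass (odds ratio 1.43, interval 0.802 to 2.50, adjusted p = 0.223, and 1.54, interval 0.897 to 2.57, adjusted p = 0.147; Fisher's exact test). They passed under other settings: with 1 mismatch allowed (28.7% against 22.5% of flanks and 18.9% of other peaks; Fisher's exact test, unadjusted p = 0.00303 and 1.07e-07), with flanks at 5000 bp (1.64%; p = 0.0104), and against other peaks at a distance limit of 200 kb (4.63% against 2.28%; p = 0.00851). The flanks of the other peaks held the octamer in 1.34% of knockout and 1.20% of wild-type windows, below the shares at those peaks' own summits and in the flanks of the members, and these differences were not tested. With distances taken to all annotated genes, 6.12% of the 196 knockout members left and 3.83% of their flanks held it (Fisher's exact test, unadjusted p = 0.216). Wild-type and knockout shares were not tested against each other, since 21 wild-type and 24 knockout octamer members lay at peaks overlapped by the other genotype. In single-copy sequence without a tandem repeat, a class chosen after the sequences were seen, the octamer lay at 29 of 556 knockout members (5.22%) and in 1.80% of their flanks, and at 11 of 283 wild-type members (3.89%) and in 1.41% of flanks.

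**Figure D5:**
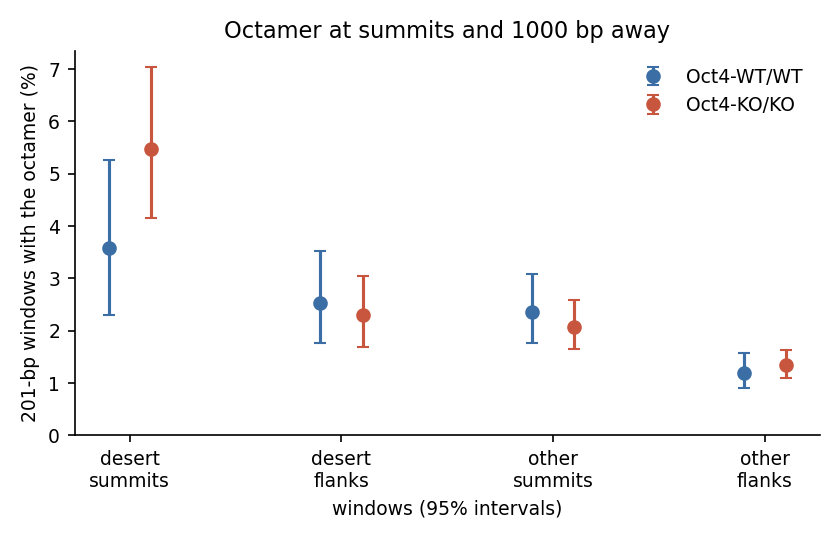
Percentage of windows reaching 100 bp to each side that hold the octamer on either strand, at summits and 1000 bp to each side, for gene-desert peaks and for other autosomal peaks outside dense bins, with exact 95% binomial intervals. Blue is Oct4-WT/WT and red is Oct4-KO/KO. Knockout desert summits stand highest, at 5.47%.

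Within the knockout, 32 of the 497 members without a wild-type peak held the octamer (6.44%, 4.45 to 8.97), and 24 of the 527 overlapped ones (4.55%, 2.94 to 6.70). The wild-type counts were 3 of 144 and 21 of 528. The median fold enrichment of octamer members was 8.21 in the knockout, as for the rest, and 7.54 against 8.91 in the wild-type. The nearest octamer was centred within 20 bp of the summit in 16 of 56 knockout (28.6%) and 6 of 24 wild-type members (25%), where even placement in the window would give 21.1%. Within 50 bp lay 37 knockout (66.1%) and 12 wild-type octamers (50%), beside 52.1% for even placement. The gene-desert sequence holds 83372 octamers in all.

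The sequence around the octamer was also alike in many members. After the octamer, 29 of 56 knockout members (51.8%) and 10 of 24 in the wild-type (41.7%) went on with CAAA, against 24.5% of all octamers in the gene-desert sequence. More than 50% of the window was soft-masked in 38 of 56 knockout and 16 of 24 wild-type octamer members (67.9% and 66.7%), beside 57.6% and 62.1% of all members. How far shared repeats account for the octamer counts was not tested.

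Several octamer members that were called in both genotypes are named here by their nearest protein-coding gene. The member nearest to Irx2, an Iroquois homeodomain gene, lay at 280 kb with 11.7 and 15.7. The member nearest to Acvr2a, an activin receptor gene, lay at 1514 kb with 10.97 and 13.7, and the one nearest to Vwde at 125 kb with 10.3 and 11.6. The member nearest to Cylc2 had 10.3 and 14.4, and like the 3 before it lay in single-copy sequence. Those nearest to Tusc1 (17.1 and 21.2), G6pd2 (13.7 and 15.7), Otogl (13.0 and 21.2) and Flrt2 (8.23 and 11.6) lay on sequence with a median of 60, 3, 108 and 2 copies. The knockout value was the higher one at each of these 8 members, which are among those with the highest wild-type fold enrichment, beside 340 of the 528 overlapped members in all. Among all 21 overlapped octamer members of the wild-type list, the knockout value was lower only at the member nearest to Gsdmc, with 7.54 and 6.84. At the member nearest to Jcad both lists had 10 fragments, and at the others the knockout value was higher.

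Other motifs were sought on both strands and were not tested. The Sox half-site CATTGT lay at 12.2% of wild-type and 13.7% of knockout members and in 15.0% and 14.6% of their flanks. The composite of CATTGT, 1 base of any kind and the octamer was found at no member and in no flank, for which the exact 95% interval reaches up to 0.547% of wild-type and 0.36% of knockout members. The Klf motif GGGTGTGG lay at 1.04% and 1.27% of members and in 0.818% and 0.977% of flanks. The AP-1 motif TGANTCA lay at 2.83% and 3.61% of members and in 5.58% and 6.30% of flanks. The TEAD motif GGAATG, which every GGAAT array also spells, lay at 12.4% and 10.9% of members and in 10.3% and 11.2% of flanks. The CTCF core (CCA, 2 bases, AG, 2 bases and GGC) lay at 0.446% and 0.293% of members, in 0.744% and 0.732% of flanks and at 1.06% and 0.894% of other peaks. The CArG box of serum response factor lay at 0.595% and 0.586% of members, in 0.893% and 0.879% of flanks and at 0.876% and 0.789% of other peaks. Peaks of the other location classes held the remaining motifs at 9.36% and 10.2% (Sox), 2.68% and 3.02% (Klf), 4.89% and 5.52% (AP-1) and 8.58% and 7.78% (TEAD).

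The autosomes held 1703 deserts, each a gap between protein-coding gene bodies, or between such a body and a chromosome end, with at least 1 base over 100 kb from a start. A wild-type member lay in 412 and a knockout member in 549. Both lists had one in 370, which is 89.8% of the deserts with a wild-type and 67.4% of those with a knockout member. Neither had one in 1112, whose largest, between Lrfn5 and Fscb, held 2.52 Mb of desert sequence. Peaks were denser in short deserts: those of 0.1 to 0.5 Mb had 1.32 wild-type (1.15 to 1.51) and 1.88 knockout (1.68 to 2.11) summits per Mb, and those of 2 Mb or more 0.702 (0.585 to 0.837) and 1.04 (0.895 to 1.20). Without the 10 deserts with the most summits these values were 1.01 and 1.60 in the shorter and 0.647 and 0.97 in the longer ones.

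A few deserts held many members. These 10 took 14.6% of wild-type and 10.4% of knockout members. The gap from Tcp10c to Tcte2 had 16 summits in each list in 0.143 Mb, with up to 39.1 in the wild-type and 40.4 in knockout tissue. The gap from Ube3a, an imprinted ubiquitin ligase gene, to Gm38393 had 17 wild-type and 12 knockout summits, and 7 of each were overlapped. Of these 10, 4 open a chromosome: the starts up to Hnf4g (15 and 14 summits), Vmn1r238 (12 and 14), H60c (10 and 9) and Gdi2 (5 and 7). Mouse chromosomes have their centromere at that end, next to satellite DNA. In the first 1 Mb of assembled sequence lay 53 wild-type members (7.89%), on 10 chromosomes, and 51 knockout members (4.98%), on 7. The gap from Sall3, a zinc-finger gene, to Galr1, a galanin receptor gene, had 6 and 11 summits, with 2 overlapped in each list. The long gaps from Hace1 to Grik2 (5 and 9), from Zeb2 to Acvr2a (7 and 7) and from Cntnap5b to Cdh20 (5 and 7) complete the list. Within 10 kb of another member of their list lay 119 wild-type and 149 knockout members, so that the members stand for 582 and 915 separate loci.

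The 5 longest deserts held 0 to 5 wild-type and 3 to 7 knockout summits each. Between Tenm3 and Aga, with 4.47 Mb of desert sequence, lay no wild-type and 3 knockout summits. Between Pcdh20 and Pcdh9 lay 3 and 4, between Celf4 and Pik3c3 1 and 3, and between Olfm4 and Pcdh17 2 and 3. The gap from Cntnap5b to Cdh20, named above, was the remaining one.

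The nearest protein-coding genes numbered 468 in the wild-type and 650 in knockout tissue, and 413 were in both. They are 17.3% and 24.0% of the 2704 genes that have gene-desert sequence nearest to them. Nearest means nearest on the chromosome and does not name a target. Of the 99 listed adhesion and synapse genes of neurons with such sequence, 46 (46.5%) had a wild-type and 49 a knockout member. These genes border long deserts, and per Mb their territory held 0.825 wild-type (0.655 to 1.03) and 1.07 knockout (0.875 to 1.29) summits, beside 0.915 and 1.39 over all genes. The strongest of them lay near Pcdh20, Chl1, a cell adhesion gene of neurons (36.3 in the wild-type and 39.7 in knockout tissue, on multicopy sequence), Adgrl3, a latrophilin gene (31.5 and 30.1, TTAGGG), Cdh4 (28.8 and 33.5, GGAAT), Cntnap5b (25.4 and 17.8, TTAGGG) and Epha7, an ephrin receptor gene (25.4 and 32.2, single copy).

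Developmental transcription factors had members at 28 wild-type (25.9%) and 31 knockout genes (28.7%) of 108, beside 17.3% and 24.0% of all genes. Their 1.06 (0.745 to 1.46) and 1.37 (1.01 to 1.82) summits per Mb stood beside 0.915 and 1.39 over all genes. Beside Pou4f1 these included Isl1, a LIM-homeodomain gene (42.5 in the wild-type and 38.3 in knockout tissue, TTAGGG), Pou3f3 (15.1 and 15.0, multicopy) and Nr2f1 (12.3 in the wild-type and 17.8 in knockout tissue), which encode a POU-domain factor and an orphan nuclear receptor. Receptor genes of multigene families had 4.48 (2.45 to 7.52) and 6.08 (3.66 to 9.50) summits per Mb, of which 12 of 14 wild-type and 14 of 19 knockout summits lay in the single gap before Vmn1r238, a vomeronasal receptor gene.

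Genes of pluripotency and of smooth muscle states had members at a handful of genes. Of 17 pluripotency genes with gene-desert sequence, 5 (29.4%) had a member in each list, the same 5 genes, with 0.872 (0.283 to 2.03) wild-type and 1.57 (0.717 to 2.98) knockout summits per Mb. Myc had the highest, 206 kb away, with 8.91 in the wild-type and 11.6 in knockout tissue. Klf5 had 6.86 and 8.89, Tet2, a DNA demethylation enzyme gene, 8.23 and 7.52, and Nr5a2, a nuclear receptor gene, 6.86 and 6.84 at an overlapped peak and 7.52 at a further knockout peak. Sox2, the usual partner of Oct4, had 1 wild-type member, 116 kb away with 6.86 in the wild-type and 6.84 in knockout tissue, on a run of A or T, and 4 knockout members of up to 8.21. Of 16 genes of smooth muscle states, 2 (12.5%) had a wild-type and 4 (25%) a knockout member, beside 17.3% and 24.0% of all genes. These smooth muscle genes had 0.897 (0.185 to 2.62) and 1.2 (0.326 to 3.06) summits per Mb. The intervals of both lists include the densities over all genes. Sox9, a chondrogenic regulator, had an overlapped member 771 kb away (10.97 and 13.7, multicopy) and a wild-type one without a knockout peak (8.23), and Pdgfra, a platelet-derived growth factor receptor gene, one 114 kb away (9.60 and 13.0, single copy). The knockout members nearest to Fn1, the fibronectin gene (8.21), and Pdgfd, a platelet-derived growth factor gene (6.16), had no wild-type peak.

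Non-coding annotation covered a small part of the members. The summit lay in no annotated gene at all for 561 wild-type (83.5%) and 879 knockout members (85.8%), and in a long non-coding RNA gene for 102 (15.2%) and 128 (12.5%). Within 1 kb of the start of any annotated transcript lay 34 and 42 members. Beyond 100 kb of every annotated start lay 128 and 200. The long non-coding genes with the strongest peaks were D130079A08Rik, which holds the GGAAT peak near Pou4f1, and 2700054A10Rik in the gap from Tcp10c to Tcte2. Genes annotated as miscellaneous RNA held 3 members of each list, Rn7s6 (30.9 and 39.7), Gm24514 (19.2 and 27.4) and Gm23153 (17.8 and 22.6). Ribosomal RNA annotation on chromosome 17 near Esp38 held 2 members of each list, with 20.6 and up to 25.3. Antigen receptor segments are not counted as protein-coding in this annotation, and the Igk locus held 5 wild-type and 4 knockout members. The Tra and Trd locus held 2 knockout members, neither of them overlapped, and the Igh, Trb, Igl and Trg loci held none. RefSeq lists 2868 functional elements on the chromosomes, and 2 members of each list overlapped one (0.298% and 0.195%), as did 3 of 2168 other wild-type and 1 of 3804 other knockout peaks.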

How the data were processed

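Oct4 ChIP-seq of aortic tissue was used as 2 samples, 1 per genotype. Per the labels and methods, Bowtie was run by the authors against GRCm38.p6, duplicate reads were dropped in SAMtools, and MACS2 gave the peaks at q under 0.05; the control of each call and the read totals are not given in the sources used here. The deposited lists hold the authors' score (10 times the −log10 q), the fold enrichment (a ratio of summit to expected pileup, each with 1 added, as the values themselves show), −log10 p and −log10 q. The summit offset in bp is deposited as another column. A list deposited as wild-type over knockout was identical to the wild-type list in all 5455 entries and was not used. The other samples of the series were not analysed here.

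Distances were taken to the starts of protein-coding transcripts of GENCODE M21 (21951 protein-coding of 55450 genes on chromosomes), and 43 dense bins, 19 of them on autosomes, were removed. Sequence came from the RefSeq assembly of the same build. Copies are the median number of assembly matches of the 31-base words within 100 bp of the summit. Tandem repeats are exact, of 4 or more units and at least 20 bp. Territory excludes N bases; a gene's territory was counted on a grid of 1000 bp. Shares have exact binomial and densities exact Poisson 95% intervals, which cover counting error only. The 6 Fisher's exact tests, two-sided, were adjusted together by Benjamini-Hochberg.

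The members, gene lists and tests were chosen with earlier results of these data known. Genes named are those nearest to the 10 highest-fold members of each list, the genes flanking the 10 deserts with most summits, the 5 farthest members, the 3 on each side of the limit, up to 5 per gene list, and up to 10 octamer members overlapped in both genotypes; others are said to be chosen later or stand beside a count. Repeat and fold classes, the context of the octamer and the printed sequences were chosen after seeing the data. Computation used Python 3.11.15 with matplotlib 3.10.9, numba 0.67.0, numpy 2.4.6, pandas 2.3.3 and scipy 1.17.1, and the functions were tested on simulated data. Some members and sequences that these rules select are not reported here.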

Additional observations from a re-analysis of the deposited data

How the results depend on the processing

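No paired analysis was possible because each genotype has 1 sample, and for the same reason no replicate could be left out. Of 79 values recomputed under other settings 56 kept their side of the threshold, stayed within the interval of the reported value or, for counts, within 1.5 times it, such as 891 and 1388 members at 50 kb and 822 and 1167 with dense bins kept. At 200 kb there were 432 wild-type and 654 knockout members, 0.82 and 1.24 per Mb, in 241 deserts with both. With all annotated genes there were 124 and 196, 0.748 and 1.18 per Mb, in 90 deserts. Knockout density was 1.51 per Mb at 50 kb, and with dense bins kept the densities were 1.12 and 1.58. The wild-type overlap share became lower than elsewhere past the threshold at 200 kb (75% against 81.1%) and with summits within 100 bp (76.2% against 80.3%), and was higher than elsewhere with dense bins kept (72.6% against 70.6%). The knockout overlap share did not pass at 200 kb (49.5% against 46.9%) or with all annotated genes (48.5% against 47.2%). Nor did it pass, chosen after seeing the data, in single-copy sequence without a tandem repeat (43.0% against 42.7%). The knockout octamer share against flanks was 6.12% with all annotated genes, against 3.83%, and did not pass. The wild-type octamer share passed against flanks with 1 mismatch (28.7% against 22.5%), with flanks at 5000 bp (3.57% against 1.64%) and in the single-copy sequence (3.89%). Against other peaks it passed at 200 kb (2.35 percentage points more) and with 1 mismatch (9.85 points more). Under the remaining settings the wild-type octamer share did not pass in either comparison. Single-copy sequence kept 283 and 556 members by construction, and starts of all transcripts of protein-coding genes, also added later, gave 647 and 984. Calls here rest on unadjusted p-values of Fisher's exact test, and the causes of these changes were not tested. Read totals are unknown, and the lowest members rest on 5 fragments, so the absence of a peak in 1 list does not show the absence of signal.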
